A study of Mus musculus with 8 samples.

Results

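The cytosolic ribosome makes every protein that is encoded in the nucleus. Its large subunit joins amino acids and its small subunit reads the mRNA. Each holds a fixed set of ribosomal proteins, named RPL and RPS, nearly all in equal copy number. Cells therefore express these genes at high and closely matched levels. Dividing cells of the embryonic brain, which must build new ribosomes with every division, are among the large users of these proteins. Many ribosomal protein mRNAs begin with a C and a run of pyrimidines, the 5′ terminal oligopyrimidine (TOP) tract, through which the growth pathway of mTOR controls their translation.

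The 86 genes described here were taken from a table of 33971 genes by name: protein-coding rows whose symbol begins with Rpl, Rps or Rplp and a number, with Rpsa added and with pseudogenes and the S6 kinases left out. They comprised 46 genes of the large subunit, 31 of the small subunit, 8 paralogs that stand beside a standard gene (Rpl3l, Rpl7l1, Rpl22l1, Rpl36al, Rpl39l, Rps23rg1, Rps27l and Rps27rt) and Rps19bp1, which encodes a binding partner of RPS19 and no ribosomal protein. The 77 genes of the subunits are called the standard members. RPS30 comes from the fusion gene Fau, which the name rule does not reach, so it is given separately.

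RNA was measured by poly-A RNA-seq in whole brains of wild-type mouse embryos at E14.5. In 4 brains the mother had been kept on a choline-deficient diet (CDD), and in 4 on normal chow (ND). No transgene, deletion or other treatment was carried by either group, and the comparison asks which genes respond in the fetal brain when the mother lacks choline. The sources give 2 starts for the diet, the day of mating and a period before it, and do not say how the brains fall into litters, so the p-values measure the spread between these brains. In bulk tissue, fewer cells of a type and less RNA per cell cannot be told apart.

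Library totals were between 31770217 and 43121170 counts. Ribosomal protein genes took 2.14%, 2.11%, 2.10% and 1.94% of all counts in CDD1 to CDD4 and 2.05%, 2.00%, 2.00% and 1.95% in ND1 to ND4. The 95% Wilson interval of the share in CDD1 ran from 2.136% to 2.146%, which covers counting error only. CDD averaged 2.07% ± 0.0899 (SD, n = 4) and ND 2.00% ± 0.0446 (SD, n = 4). The brains of the diets overlapped, since CDD4 lay with ND4 at the low end, while CDD1, CDD2 and CDD3 lay above every ND brain. The large subunit took 1.18% of counts in CDD and 1.14% in ND, and the small subunit 0.877% and 0.841%.

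Differences between the diets were small in these genes, and few members were called. The edgeR quasi-likelihood test, with Benjamini-Hochberg adjustment over all genes, was applied to the 83 members that passed the filter on low counts. It called 3 members higher in CDD, Rps4x, Rpl5 and Rpl7, and 0 lower. That is 3.61% of members, against 8.83% of the 19367 genes tested that were called in either direction and 4.24% that were called higher. An unadjusted p under 0.05 was reached by 19 of the 83 members, beside 4627 of the 19367 genes tested. The median log2 fold change of members was 0.05, beside a median of -0.00 over all genes tested. Estimates lay above 0 for 63 members and below 0 for 20, beside 9507 above and 9860 below over all genes. Members had a median SE of 0.05 on the log2 scale. In counts simulated for the comparison of CDD with ND over 19367 genes, a true change of 0.2 on that scale was called in 9 of 67 genes. The changed genes were drawn from all genes tested, whose median SE was 0.08, so this rate does not carry over to the members.

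The number called turned on single brains and on the method. Without ND1 or without ND3, 0 members were called, 1 was called without CDD2, without ND2 or without ND4, and 6 without CDD4. The single call without ND4 was none of the 3 genes. DESeq2 called 14 members higher, while it called 13.9% of all genes. Correcting for the length of the gene or of its mRNA raised the count of members called higher to 13 and 30, beside 10.2% and 15.4% of all genes in those fits. None of the fits called a member lower. The mRNA length correction was chosen after seeing the data.

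**Figure D1:**
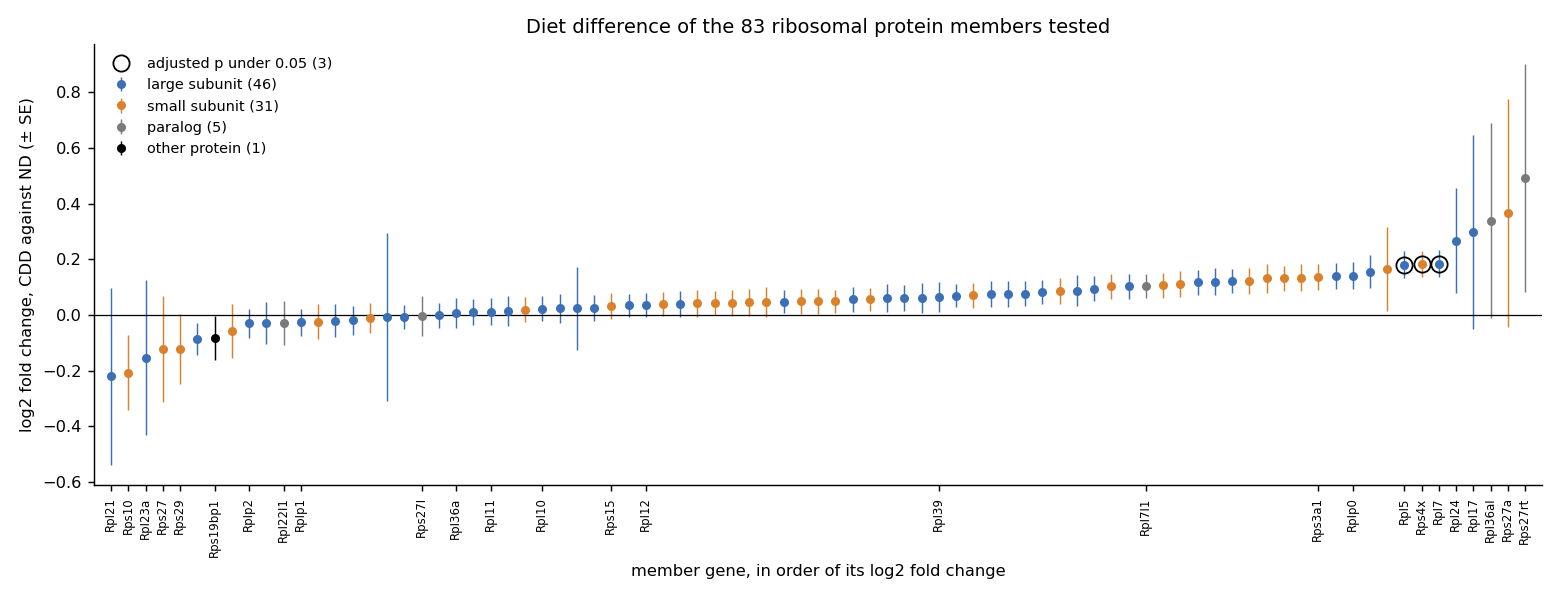
Log2 fold change of CDD against ND (vertical axis, ± SE) for each of the 83 members tested, in rising order along the horizontal axis, with the genes of the naming rule labelled, and coloured by subunit. Most points lie between 0 and 0.2, the 3 circled genes were called at an adjusted p under 0.05, and the members with long error bars are found at both ends.

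Each of the 3 genes that rose had a log2 fold change of 0.18. Rps4x encodes RPS4, a protein of the small subunit, and lies on the minus strand of chromosome X from 101228547 to 101233000 in the authors' coordinates, whose genome build is not given in the sources used here. It was at 449.5, 457.0, 429.5 and 444.9 CPM (counts relative to the library's total, scaled by TMM) in CDD1 to CDD4 and at 397.2, 398.1, 393.7 and 380.0 CPM in ND1 to ND4. Every CDD brain stood above every ND brain. The log2 fold change was 0.18 (SE 0.05, edgeR adjusted p = 0.0188), a rise of 13.5%. The call was lost without ND1, ND3 or ND4.

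Rpl5 encodes RPL5, which with RPL11 and the 5S rRNA forms the particle that joins the large subunit and, when free, binds Mdm2. It lies on the plus strand of chromosome 5 from 108048368 to 108056871. Its levels were 443.2, 463.3, 424.8 and 450.2 CPM in CDD and 402.1, 397.4, 392.1 and 379.7 CPM in ND, again without overlap. The log2 fold change was 0.18 (SE 0.05, edgeR adjusted p = 0.0227). Its partner Rpl11 was at 261.7 CPM in CDD and 259.5 CPM in ND, with a log2 fold change of 0.01 (adjusted p = 0.913) that turned below 0 when some single brains were left out.

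Rpl7 encodes a protein of the large subunit and lies on the minus strand of chromosome 1 from 16171519 to 16174886. It was at 558.2, 580.7, 526.2 and 573.2 CPM in CDD and at 507.0, 489.9, 486.6 and 487.1 CPM in ND. The lowest CDD brain was CDD3, which was still above the highest ND brain, ND1. The log2 fold change was 0.18 (SE 0.05, edgeR adjusted p = 0.0237). Rpl5 and Rpl7 lost their calls without CDD2 or without any of the 4 ND brains, and Rpl5 also lost it under the GC correction. Of all windows of 100 bases in the mRNA, 91.1% of those of Rpl5, 34.8% of those of Rps4x and 28.2% of those of Rpl7 recur in a transcript of another gene. With the reads of their pseudogene rows added, the 3 genes kept a log2 fold change of 0.18, with adjusted p-values of 0.0184 for Rps4x, 0.0225 for Rpl5 and 0.0245 for Rpl7. Those rows held a mean of only 0.461, 0.536 and 2.07 CPM in this order, so adding them could hardly move the estimates. The sum did not take in all rows that share a window, which held 28.5 CPM for Rps4x, 52.0 for Rpl5 and 3.65 for Rpl7.

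**Figure D2:**
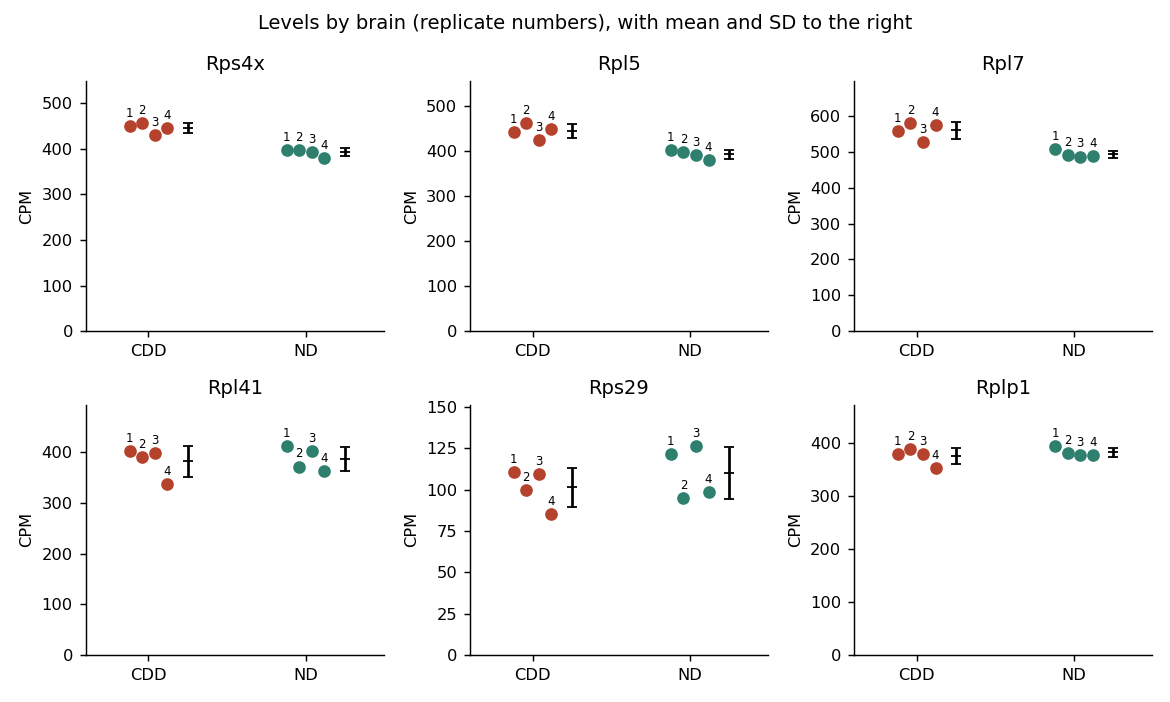
CPM by brain for 6 members, with the replicate number over each point and the mean and SD (n = 4) to its right; the vertical axes start at 0. In Rps4x, Rpl5 and Rpl7 all CDD points lie above all ND points, while in Rpl41, Rps29 and Rplp1 the diets overlap and CDD4 is the lowest brain.

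Separation of the diets reached further than the calls. In 17 members every CDD brain was above every ND brain, and in 0 every CDD brain was below. That is 20.5% of members, beside 15.0% of all genes tested that did not overlap in either direction and 7.65% in which CDD was above. They included the 3 genes above and Rpl3, Rpl4, Rpl6, Rpl7l1, Rpl10a, Rpl19, Rpl26, Rplp0, Rps3, Rps3a1, Rps6 and Rpsa, named here after their values were seen. Rpl4, a large protein that reaches into the exit tunnel of the ribosome, was at 670.3, 719.7, 687.3 and 714.9 CPM in CDD and at 647.8, 626.2, 631.3 and 631.2 CPM in ND. Its log2 fold change of 0.14 (SE 0.05) had an adjusted p of 0.0702 in edgeR. Rps3a1 of the small subunit had a log2 fold change of 0.14 (SE 0.05) and an adjusted p of 0.0721.

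Medians were alike in the large and the small subunit. The median log2 fold change was 0.05 for the large subunit, where 2 of 46 genes were called, and 0.05 for the small subunit, where 1 of 31 was called. These are 4.35% and 3.23% called, against 8.83% of all genes tested. Of 18 genes in which mutations are known from Diamond-Blackfan anemia, Rpl5 was the 1 called (5.56%), and their median was 0.03. None of the P stalk genes was called. The P stalk recruits elongation factors and holds RPLP0 at its base, with RPLP1 and RPLP2 in pairs on it and RPL12 beside it. Rplp0 was at 857.1, 936.7, 859.3 and 931.7 CPM in CDD and at 833.1, 797.4, 815.3 and 805.3 CPM in ND, with a log2 fold change of 0.14 (SE 0.05) and an adjusted p of 0.0798. Rplp1 and Rplp2 had log2 fold changes of -0.03 and -0.03, each with diets that overlapped, and Rpl12 one of 0.03. The signs of Rplp1 and Rplp2 turned with the GC and mRNA length corrections.

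Among the 4 members on chromosome X, Rps4x alone was called, while 8.83% of all genes tested were called. Rpl10, whose protein is among the last to join the large subunit, was at 384.7 to 414.6 CPM in CDD and 392.7 to 406.9 CPM in ND. Rpl36a had a log2 fold change of 0.01, with a sign that turned under the GC correction, and Rpl39 one of 0.06 (adjusted p = 0.517). The labels do not give the sex of the embryos. Xist, the RNA of the silenced X chromosome, was at 1611, 1642 and 1700 CPM in CDD2, CDD4 and ND4 and at or under 0.351 CPM in the other 5 brains. In Rps4x, CDD2 was the highest and CDD4 the third highest CDD brain, and ND4 was the lowest ND brain. The part of sex in the result was not tested.

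The first bases of the annotated mRNAs are shown next because a pyrimidine start is what ties these genes to translation control. Each line holds the first 25 bases of a GENCODE M21 transcript, 5′ to 3′, with the pyrimidine run in capitals where the first base is C and the next 4 bases are C or T.
Rps4x: ggagcaacccaggctccagcgcgcg
Rpl5: cagccactctttctcacgtcgcttg
Rpl7: cccagagctgacgaggtgtccccac
Rpl4: CTTTTCCTgtgggagcagccgggta
Rps3: CCTTTCCTTTCagcggcgcgcggct
Rps24: CTCTTTTCCTCCTCTCCagctccgg
Rpl32: CTTCCTTCTTCCTCggcgctgccta

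A start of this kind stood at some annotated protein-coding transcript of 22 of the 77 standard members, or 28.6%, and of 1121 of 21901 genes, or 5.12%. At RefSeq starts (GRCm38.p6), which were given for 66 of the 86 members, 14 members (21.2%) had it, beside 813 of 27025 genes (3.01%). None of the 3 called genes had it at an annotated first base, which says only that these letters are not at that base. The 22 standard members with the tract had a median log2 fold change of 0.05 and 0 calls, and the 55 without it a median of 0.05 and 3 calls. The 3 calls are 5.45% of the 55, against 8.83% of all genes tested.

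Protein length went with the size of the difference. The standard members were put in order of their protein length, a choice made after seeing their values, and divided into groups of 25, 26 and 26. The shortest proteins, of 25 to 133 amino acids, had a median log2 fold change of 0.02, with 15 estimates above 0 and 10 below. Proteins of 135 to 188 amino acids had a median of 0.05. The longest, of 192 to 419 amino acids, had a median of 0.09, with 24 estimates above 0 and 2 below. They held the 3 calls (11.5%, against 8.83% of all genes tested). In 14 of these 26 the diets did not overlap, against 2 of 26 in the middle group and 0 of 25 in the shortest. Over all genes tested, 15.0% did not overlap, and in 7.65% CDD was above. The median coefficient of variation within a diet was 6.34%, 4.45% and 3.27% from the shortest group to the longest. A difference of the same size therefore separates the diets more readily in the longer members. Across the 77 genes, which share the same 8 libraries, Spearman's coefficient between log2 fold change and protein length was 0.490. It was between 0.404 and 0.594 when single brains were left out and 0.435 with the mRNA length correction. The coefficient was 0.381 against mean CPM, so the difference also went with the level.

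Rpl41, the shortest member with 25 amino acids, was at 402.6, 390.4, 398.9 and 336.7 CPM in CDD and at 411.6, 371.9, 402.9 and 363.2 CPM in ND. Rps29, with 56 amino acids, was at 110.8, 99.6, 109.4 and 85.5 CPM in CDD and at 121.3, 95.03, 126.1 and 98.4 CPM in ND. In both genes CDD4 was the lowest of the 8 brains and the other CDD brains lay within the range of ND. Against these, Rpl3, with 403 amino acids, was at 500.6, 551.9, 507.6 and 540.6 CPM in CDD and at 487.3, 489.0, 475.8 and 482.1 CPM in ND, and CDD4 was its second highest brain.

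**Figure D3:**
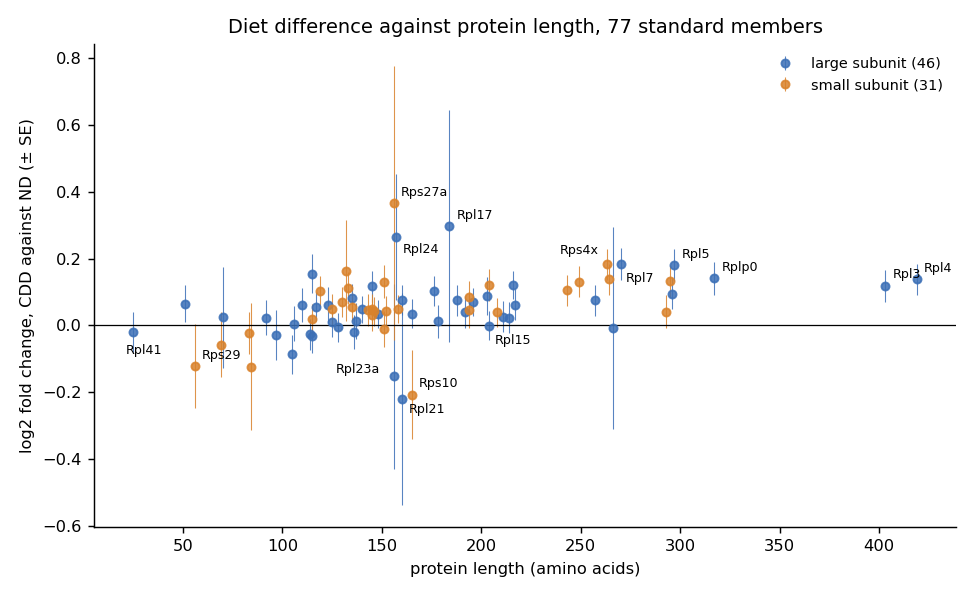
Log2 fold change of CDD against ND (vertical axis, ± SE) against protein length in amino acids (horizontal axis) for the 77 standard members, coloured by subunit. Members with 192 amino acids or more lie mostly above 0, short members scatter around 0, and the members farthest from 0, such as Rps27a and Rpl21, have long error bars.

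CDD4 was low among the short members. Each gene was centred on its mean log2 CPM over the 8 brains. CDD4 had a median deviation of -0.14 over the 25 shortest members and of 0.01 over the 26 longest. CDD1, CDD2 and CDD3 had medians of 0.06, 0.02 and 0.06 over the shortest and 0.04, 0.09 and 0.04 over the longest. The ND brains had medians of 0.05, -0.05, 0.01 and -0.07 over the shortest and of -0.03, -0.04, -0.06 and -0.08 over the longest. Over the longest members, therefore, all CDD medians were above all ND medians, and over the shortest CDD4 was below every other brain. CDD4 was the lowest of the 8 brains in 28 of the 77 standard members and the highest in 0. CDD2 was the highest in 18 of the 26 longest. CDD3 and CDD4 also carried more Gapdh, at 65.0 and 45.3 CPM against 11.4 to 14.0 CPM in the other brains. Without CDD3 and CDD4 together, 10 members were called higher, while 9.19% of all genes were called in either direction. The median log2 fold change of members was then 0.07. Nor was CDD4 low in these genes alone. Mitochondrial ribosomal protein genes summed to 1820 CPM in CDD4 and to 1948 to 2031 CPM in the other 7 brains, and over all genes tested CDD4 had the widest quartiles of the deviation, -0.17 and 0.13. The part of these libraries in the result was not tested.

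**Figure D4:**
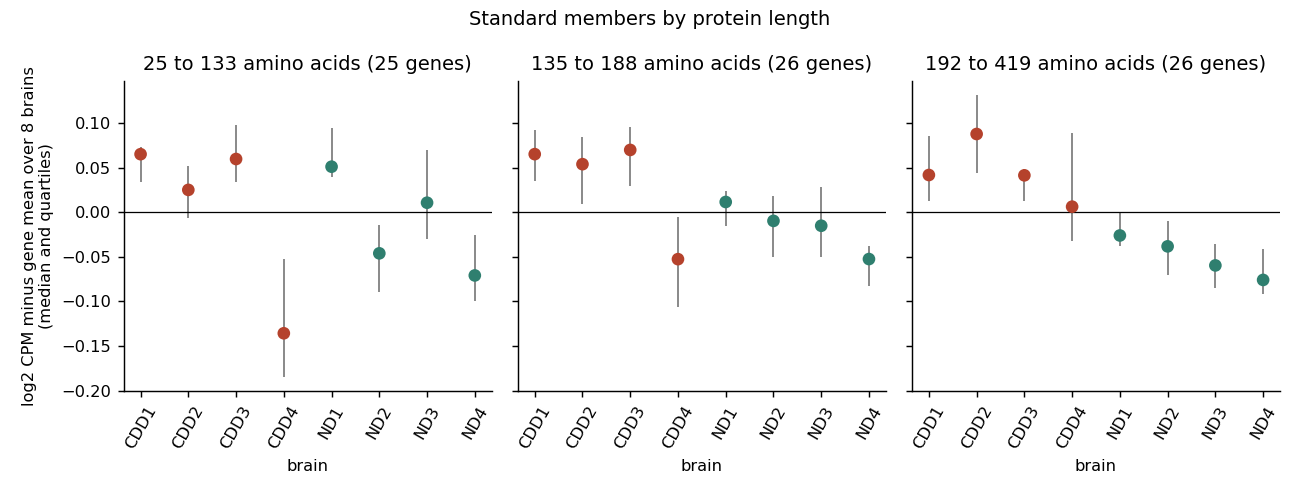
Median deviation of each brain (points, with quartiles as bars) from the gene's own mean log2 CPM, for standard members of short, middle and long protein length; the horizontal axis lists the brains and colour marks the diet. CDD4 drops to -0.14 in the left panel, and in the right panel the 4 CDD medians lie above the 4 ND medians.

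Levels between members were compared with the deposited FPKM, which divide by the listed gene length, made of all annotated exons of a gene. The highest were Rplp1 at 757 ± 22.5, Rplp0 at 513 ± 33.9, Rps3a1 at 436 ± 26.1 and Rps15 at 402 ± 16.5 FPKM (SD, n = 8). The spreads of Rps3a1 and Rps15 touched, and the other neighbours in this order did not. Among standard members the lowest were Rpl24 and Rps10. Rpl24 was listed at 1.76 ± 0.346 FPKM and Rps10 at 2.92 ± 0.493 FPKM (SD, n = 8). Rps10 was at 5.01 to 7.99 CPM in CDD and 6.32 to 8.07 CPM in ND, while its processed pseudogene Rps10-ps2 was at 80.9 to 89.3 CPM in CDD and 75.8 to 84.0 CPM in ND. For Rpl24, all 4 rows that share sequence with it added a mean of 4.70 CPM to its own 1.83 CPM. How reads that match several places were counted is not given in the sources used here.

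Members share sequence with copies elsewhere in the genome. Processed pseudogenes are copies of mRNAs put back into the genome, and 188 rows of the table were named for a member as their parent, spread over 55 members. For each member the transcript was cut into all windows of 100 bases, and windows found letter for letter in a transcript of another gene were counted. The median member that varied little between brains of a diet had 34.2% of its windows shared. In 14 members the coefficient of variation within a diet was above 10%, a limit set after seeing the data, and their median was 71.3%. Those 14 varied by 10.9% to 40.7%, against a median of 3.76% in the other 69. Over all 77 standard members, which share the same libraries, Spearman's coefficient between this variation and the share of windows was only 0.155, and 0.0905 with the number of pseudogene rows, so the contrast is one of the widest members and not of the whole set. When all rows that share a window were added to the member, the variation fell in all 14, and in 6 of them it fell under 10%. Adding rows that vary independently lowers it as well, so a fall in members picked for wide variation could be foreseen. In Rps28 it fell only from 10.9% to 10.8% and in Rps29 from 13.1% to 12.6%.

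Rpl17, of the large subunit, was at 89.2, 113.6, 121.6 and 50.9 CPM in CDD and at 61.4, 101.8, 90.7 and 52.0 CPM in ND. Its pseudogene row Rpl17-ps10 was at 91.2, 72.3, 53.2 and 131.9 CPM in CDD and at 106.8, 58.8, 81.3 and 111.5 CPM in ND. It was high in the brains in which Rpl17 was low. Rpl17 with its 6 pseudogene rows came to 270.3, 273.5, 259.3 and 270.4 CPM in CDD and to 255.9, 242.0, 250.8 and 247.3 CPM in ND. The coefficient of variation was 32.9% alone and 2.33% for the sum. The log2 fold change was 0.30 (SE 0.35) alone and 0.11 (SE 0.04, adjusted p = 0.122) for the sum, in which the diets no longer overlapped.

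Rps27 and its copy Rps27rt were another such pair. The first 120 coding bases of GENCODE M21 are printed for both and for the paralog Rps27l, with capitals where a base differs from Rps27, since the first pair is identical over them.
Rps27: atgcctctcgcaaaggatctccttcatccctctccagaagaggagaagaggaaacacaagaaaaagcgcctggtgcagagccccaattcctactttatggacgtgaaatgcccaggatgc
Rps27rt: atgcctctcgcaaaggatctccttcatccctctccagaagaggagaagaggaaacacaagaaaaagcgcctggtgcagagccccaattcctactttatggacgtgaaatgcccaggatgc
Rps27l: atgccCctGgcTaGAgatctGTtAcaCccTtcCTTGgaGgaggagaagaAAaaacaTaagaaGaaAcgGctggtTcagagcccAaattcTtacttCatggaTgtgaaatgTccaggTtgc

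Over all 252 coding bases, Rps27 and Rps27rt differed at 0 positions, and Rps27l differed from Rps27 at 60. Rps27 was at 143.5, 90.3, 117.0 and 102.7 CPM in CDD and at 138.2, 124.4, 137.8 and 93.5 CPM in ND. Rps27rt was at 29.4, 62.0, 43.2 and 36.0 CPM in CDD and at 24.1, 17.7, 26.4 and 53.0 CPM in ND. CDD2 and ND4 were low in Rps27 and high in Rps27rt. Alone they varied by 18.5% and 40.7% within a diet, and the sum of the rows that share their sequence varied by 8.16%. Rps27rt had the largest log2 fold change of all members, 0.49, with an SE of 0.41 (adjusted p = 0.541), and Rps27 had -0.12 (SE 0.19). Rps27l, which shares no window, was at 23.8 ± 1.86 CPM in CDD and 23.9 ± 1.89 CPM in ND (SD, n = 4).

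Several other members with wide spreads stood near the ends of the order, and none of the 14 was called. Rps27a, which encodes RPS27A fused to ubiquitin, was at 98.6 to 262.8 CPM in CDD and 101.5 to 239.5 CPM in ND, with a log2 fold change of 0.37 (SE 0.41), and its pseudogene rows lowered its variation only from 40.3% to 36.3%. Rpl21 had the lowest log2 fold change, -0.22 (SE 0.32), with 37.6 to 73.7 CPM in CDD and 41.3 to 79.1 CPM in ND. Rpl23a was at 62.7 CPM in CDD2 and at 131.8 to 151.8 CPM in the other 7 brains, and its log2 fold change of -0.15 became 0.07 without CDD2. Rps10 had a log2 fold change of -0.21 (SE 0.13) alone and of 0.10 (SE 0.04, adjusted p = 0.191) with its pseudogenes. Rpl24 had 0.27 (SE 0.19).

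**Figure D5:**
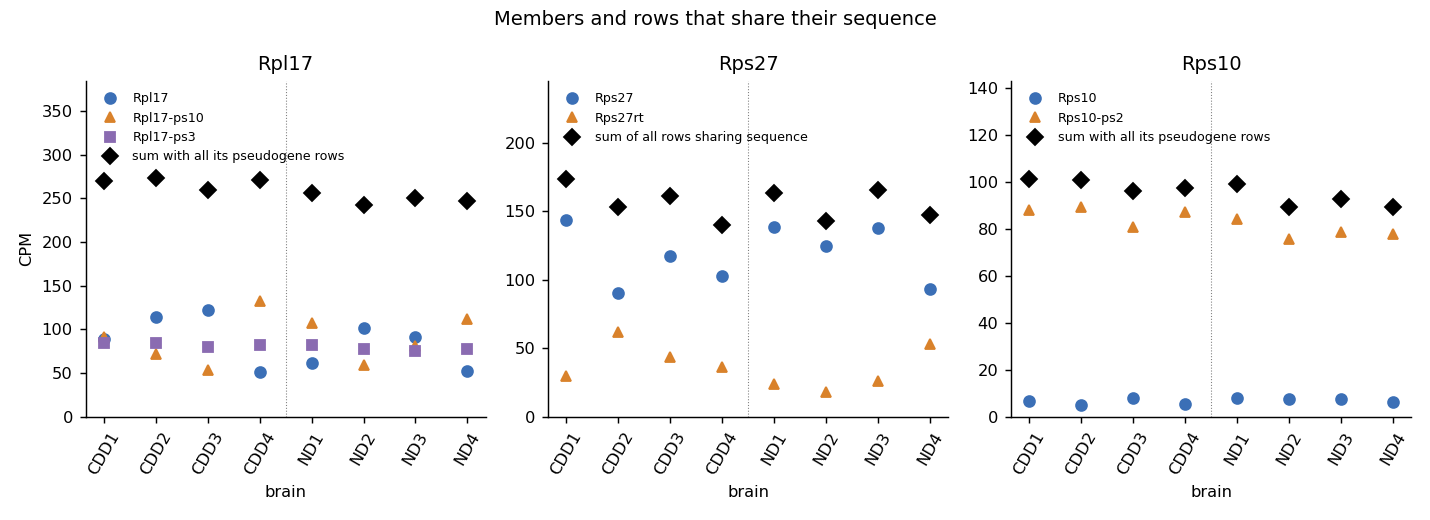
CPM by brain (horizontal axis) for Rpl17, Rps27 and Rps10, for the rows that share their sequence, and for the sums (diamonds). Rpl17 and Rpl17-ps10 mirror each other, while the sum of Rpl17 with all its pseudogene rows stays between 242.0 and 273.5 CPM. Rps27 and Rps27rt mirror each other more weakly, and Rps10-ps2 has more counts than Rps10 in every brain.

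The other paralogs were at low levels. Rpl3l, Rpl39l and Rps23rg1 did not pass the filter. Rpl3l, the form of RPL3 found in muscle, had 0 to 2 counts per CDD brain and 1 to 4 per ND brain, Rpl39l 1 to 7 and 0 to 3, and Rps23rg1 2 to 14 and 3 to 8. Rpl36al was at 0.297 ± 0.0906 FPKM (SD, n = 8), with a log2 fold change of 0.34 (SE 0.35). Rpl22l1, the partner paralog of Rpl22, was at 23.7 to 31.2 CPM in CDD and 25.9 to 30.9 CPM in ND, with a log2 fold change of -0.03 (SE 0.08) whose sign turned with the length corrections. Rpl7l1, which acts in making the large subunit, did not overlap between the diets, with 73.6 ± 1.67 CPM in CDD and 68.5 ± 1.78 CPM in ND (SD, n = 4) and a log2 fold change of 0.10 (SE 0.04, adjusted p = 0.134). Rps19bp1 had -0.08 (SE 0.08). Fau, outside the name rule, was at 197 ± 10.3 CPM in CDD and 194 ± 4.84 CPM in ND (SD, n = 4) and was not called.

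Other translation genes were examined by list. Of 20 genes whose mRNAs are known for the TOP tract or for control with it, 9 rose (45.0%, against 4.24% of all genes), 0 fell, and the median log2 fold change was 0.14. Pabpc1, the poly-A binding protein, was at 422.9, 476.5, 421.9 and 494.7 CPM in CDD and at 389.7, 385.5, 393.9 and 375.9 CPM in ND, a log2 fold change of 0.23 (SE 0.06, edgeR adjusted p = 0.0144). Eif3e, a subunit of initiation factor 3, rose by 0.19 (SE 0.05, adjusted p = 0.0132) in 4 of 4 CDD brains. Vim, the filament protein that is also a marker of neural progenitors, rose by 0.21 (SE 0.05, adjusted p = 0.0183). Of the 19 listed genes with a protein-coding GENCODE transcript, 7 (36.8%) had the tract at an annotated start, Pabpc1 among them but not Eif3e or Vim. In 14 of the 20 genes (70.0%, against 7.65% of all genes tested) every CDD brain was above every ND brain. The calls in this list numbered 0 without ND1 or ND3, 1 without ND4, 4 without CDD2 and 5 without ND2, and the median stayed between 0.13 and 0.15 when single brains were left out. The list was chosen with earlier results of these data known.

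Genes that build or regulate ribosomes were called at shares near those of all genes. Of 60 biogenesis genes 3 rose (5%, against 4.24% of all genes) and 0 fell, with a median log2 fold change of -0.01 whose sign turned under the length corrections and without some single brains. They were Rrn3, the initiation factor of RNA polymerase I (0.20, SE 0.05, adjusted p = 0.0215), Gtpbp4, a GTPase of large subunit assembly (0.18, SE 0.05, adjusted p = 0.0433), and Heatr1, of the small subunit processome (0.18, SE 0.06, adjusted p = 0.0436). Of 20 regulators 0 rose and 2 fell (10% called, against 8.83% of all genes), Mycn (fell by 0.19, SE 0.05, adjusted p = 0.0224), the Myc family member of neural progenitors, and Max (fell by 0.18, SE 0.05, adjusted p = 0.0181), its DNA-binding partner. Mtor had no call. Of 29 further initiation and elongation factors 0 rose and 2 fell, Eef2k, the kinase that inhibits elongation factor 2 (fell by 0.21, SE 0.05, adjusted p = 0.00891), and Eef1a2, the elongation factor form of neurons and muscle (fell by 0.21, SE 0.06, adjusted p = 0.0452), with a median over the list of 0.11. These are 6.90% called, against 8.83% of all genes. Of the 29 estimates 25 were above 0, beside 9507 of 19367 over all genes. An unadjusted p under 0.05 was reached by 17, beside 4627 of all genes. The count that rose is given with the share of all genes called in either direction. It was 7 in DESeq2 (13.9%), 6 without a filter on low counts (6.99%) and 7 with the mRNA length correction (15.4%). With that and a replicate block it was 11 (15.0%). It was 6 without CDD3 and CDD4 (9.19%) and 10 without CDD3 (12.7%). Without CDD2 (7.14%), without CDD4 (7.70%) or without any single ND brain (2.40% to 7.38%) it was 0. Of 77 mitochondrial ribosomal protein genes, which serve the ribosome of another compartment, 0 rose and 1 fell, Mrps26, and the median was -0.02, which became 0.03 with the mRNA length correction and 0.0020 without CDD4. Of 86 pseudogene rows tested, Rps12-ps3 rose and Rpl10a-ps1 fell. The shares called were 1.30% of the mitochondrial genes and 2.33% of the pseudogene rows, both under the 8.83% of all genes. Each gene given here as risen or fallen lost its call when some single brain was left out.

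Markers of the cells in the brain were read from the same fit. In it 4.24% of all genes tested rose and 8.83% were called in either direction. Of 10 neural progenitor markers, which include the proliferation genes Mki67 and Top2a and also Vim, 6 rose and 0 fell, and their summed level was 2104 to 2444 CPM in CDD and 1867 to 1991 CPM in ND. Of 10 neuron markers 0 rose and 2 fell, with sums of 6199 to 6858 and 6320 to 6578 CPM. Meningeal markers had 1 rise and 3 falls of 8, with sums of 494 to 545 and 525 to 625 CPM. Microglia and macrophage markers had 0 and 2 of 8, with sums of 69.6 to 78.1 and 79.2 to 91.0 CPM, and endothelial markers 0 and 1 of 8. Erythroid markers had 2 rises of 10, with sums of 764 to 1426 and 827 to 2995 CPM, and choroid plexus markers 1 rise of 6. Of 10 markers of caudal hindbrain and spinal cord 5 passed the filter and 0 were called, and their sum was 163.7 CPM in CDD2 and 51.3 to 61.6 CPM in the other brains. No marker was at 0 in all brains. The part of cell makeup in the ribosomal protein result was not tested.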

How the data were processed

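The unit tested was the read count of each gene in each brain, which the authors deposited without scaling, together with a normalized signal, which was not used, and with FPKM, which divide by a gene length listed in the table. The submitters' processing notes name HISAT2 2.0.5, featureCounts 1.5.0-p3 and DESeq2 1.20.0, without saying how each was set. The genome build is not given in the sources used here, so gene positions are those of the table. GENCODE M21 supplied transcripts, by gene identifier (32185 matched, all 86 members among them). The deposited fold changes and p-values of the authors' own comparison, and 3 shorter lists drawn from it, were not used.

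All 8 brains were used, grouped by the diet in their labels. Counts were filtered with filterByExpr (19367 genes left), scaled by TMM and fitted with robust quasi-likelihood in edgeR 4.0.16, with 1 term for the diet. The threshold was 0.05 after Benjamini-Hochberg adjustment over all genes tested. CPM are TMM-scaled counts, centred values use a prior count of 2, and deposited FPKM served to compare levels between genes. Further software was matplotlib 3.10.9, SciPy 1.17.1, NumPy 2.4.6 and pandas 2.3.3 in Python 3.11.15, and DESeq2 1.42.0 and limma 3.58.1 in R 4.3.3. Counting intervals and library totals cover sampling of reads only. Chi-square per degree of freedom between brains of a diet was 3.76 to 22.5, so no pair of brains was counted as 1 sample.

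The members and gene lists were chosen with earlier results of these data known. Genes were named by rule: members called, the 5 largest and 5 smallest fold changes, paralogs, the 4 highest and 4 lowest FPKM, the P stalk, Rpl5, Rpl11, X-linked members, Fau, and the 3 called genes of smallest p in each further list. Some genes under this rule or among the members are not reported here. Other names are examples chosen after their values were seen. The test was tried on simulated counts. It called 48 of 66 genes changed by 0.5 and 55 of 64 changed by 1 on the log2 scale, and 8 of 18921 unchanged ones. Alternatives were other scalings, filters, tools, corrections for GC and length, thinned libraries, other treatments of pseudogene rows, stricter thresholds, a replicate block and brains left out.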

Additional observations from a re-analysis of the deposited data

Results flagged for a closer look

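Results are listed here where the highest or the lowest brain of a diet stood apart from its 3 companions by Dixon's criterion for 4 samples (the gap to the nearest companion, divided by the range of the 4). This was so in 13 of the 166 groups formed by 83 members and 2 diets, and chance alone gives about 8.3. CDD4 was the low brain in 5 of them: Rpl10 at 384.7 CPM, Rpl29 at 132.1 CPM, Rpl38 at 69.9 CPM, Rplp2 at 169.4 CPM and Rps26 at 296.9 CPM. Without CDD4 the log2 fold change of Rpl29 was 0.12 and was called (edgeR adjusted p = 0.0384). CDD2 was low in Rpl23a, at 62.7 CPM. ND1 was the high brain in Rpl7 at 507.0 CPM, Rpsa at 730.7 CPM and Rps24 at 342.0 CPM. ND2 was high in Rps12, at 155.6 CPM. ND4 was high in Rpl30, at 140.1 CPM, and without it Rpl30 had a log2 fold change of 0.22 (edgeR adjusted p = 0.0289), while ND4 was low in Rpl14, at 203.2 CPM, and in Rpl35a, at 62.3 CPM. Without ND4 the log2 fold changes of these were 0.04 and 0.02, and without ND1 Rpl7 lost its call (edgeR adjusted p = 0.0697). None of the other refits gave a call. Each brain was picked from the same values, so the way its removal moved the estimate could be foreseen. The causes were not tested.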

How the results depend on the processing

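The number of members called, 3 in edgeR, was 3 with RLE or upper-quartile scaling, thinned libraries, either treatment of pseudogene rows, or at least 10 counts in every brain, and 4 without a filter. It was 14 in DESeq2, 6 in limma-voom, 6 with a GC correction, 13 with a gene length correction, 10 without CDD3 and CDD4 together, 0 at an adjusted p under 0.01 and 0 for a change of at least 1.2-fold. With an mRNA length correction, added after seeing the data, it was 30, and the median log2 fold change of members was 0.1175, of biogenesis genes 0.0157, and the 1 pseudogene row that could be tested had 0.3018. The counts were all of genes higher in CDD. With single brains left out it was 0 to 6, while 2.40% to 12.7% of all genes were called. The biogenesis median was then -0.0178 to 0.0118. The causes were not tested.

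The replicate numbers were not taken to pair the brains, because not every correlation of deviations was over 0.1. They were 0.105, -0.133, 0.117 and 0.232 for numbers 1 to 4, and 3 of 4 brains correlated best with their own number, a hint from the data and not from the design. With a replicate block 4 members were called. With the replicate block and the gene length correction 15 were called. With the replicate block and the mRNA length correction 31 were called, and the medians were 0.1174 for members, 0.0153 for biogenesis genes, with 0.2929 for the 1 pseudogene row tested.

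Signs turned in medians near 0, of biogenesis genes as above and of mitochondrial ribosomal proteins (from -0.0244 to 0.0258 with the mRNA length correction), and in named genes with no call. The gene length, blocked gene length, mRNA length and blocked mRNA length corrections gave, in this order, 0.0062, 0.0062, 0.0497 and 0.0514 for Rpl22l1, 0.0030, 0.0018, 0.0303 and 0.0300 for Rplp2, and 0.0141, 0.0160, 0.0787 and 0.0818 for Rps27l. For Rplp1 the mRNA length correction gave 0.0611 and 0.0591 with the block. The GC correction gave -0.0140 for Rpl36a, 0.0369 for Rplp1 and 0.0095 for Rplp2. Without CDD3 and CDD4 together, Rpl22l1 was at 0.0695, Rplp1 at 0.0053, Rplp2 at 0.0233 and Rps27l at 0.0405. Rps27l was at 0.0001 in DESeq2 and 0.0173 in thinned libraries, and Rps10 at 0.0951 with pseudogene reads added. With single brains left out the range was -0.0102 to 0.0535 for Rpl11, -0.0837 to 0.0395 for Rpl22l1, -0.2604 to 0.0682 for Rpl23a, -0.0257 to 0.0517 for Rpl36a, -0.0441 to 0.0004 for Rplp1, -0.0510 to 0.0251 for Rplp2 and -0.0459 to 0.0426 for Rps27l. Of the 16 named genes called, each lost its call under some setting, in 45 values with all brains or without CDD3 and CDD4, and in 63 values with single brains left out. Depth limits Rpl3l, Rpl39l and Rps23rg1, which had at most 14 counts in any brain.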
